A study of Homo sapiens with 6 samples.

Results

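Zinc finger genes of chromosome 19 are the genes whose symbol is ZNF followed by a number and at most 1 letter, and whose locus lies on that chromosome. This rule found 243 gene entries, called members below, among the 63563 entries of the deposited gene table. They carry 242 symbols, because ZNF709 stands under 2 gene IDs. GENCODE 29 types 239 of them as protein coding and 4 as pseudogenes. The RNA came from RKO, an established human colorectal cancer cell line, stably transfected with the expression vector pcDNA3.1. The control group EV (3 libraries) carried the empty vector and is labelled wild type. The group OVER43 (3 libraries) carried the cDNA of Cx43, the gap junction protein encoded by GJA1, and is labelled as Cx43 overexpression. The labels do not say whether either stable line is 1 clone or a pool, or whether the 3 libraries of a group are separate cultures, so a p-value here reflects the spread between these libraries, which may be technical.

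Most of these genes encode proteins with a row of C2H2 zinc fingers, each a short fold that holds a zinc ion and contacts DNA. Many of them also carry an N-terminal KRAB box, which binds the scaffold protein TRIM28. TRIM28 brings in the histone methyltransferase SETDB1, HP1 proteins and DNA methyltransferases, which silence the bound DNA, often a retrotransposon. The genes arose by repeated tandem duplication and stand in clusters in which neighbours share sequence.

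FPKM is the number of fragments per kilobase of transcript, scaled to the depth of the library. GJA1, the gene on the vector, had 23.2, 26.0 and 24.9 FPKM in OVER43 and 0.300, 0.351 and 0.394 FPKM in EV, which fits the labels. Low FPKM values of single-isoform genes step by the value of 1 fragment, and these steps placed the libraries at 41.6 to 50.8 M fragments. A transcript of 4014 bases, the median length of the tested members, then had 167 to 204 fragments per FPKM. Of the 10 colon epithelial markers examined, 4 passed the filter described below (EPCAM, KRT8, KRT18 and CDX2), while CDH1, KRT20, VIL1, CDX1 and LGR5 had group means of at most 0.258 FPKM and KRT19 of 0.613 in OVER43 and 0.618 in EV. Of the 4 that passed, KRT18 and EPCAM rose by 0.89 and 0.67 on the log2 scale and KRT8 fell by 1.22 (adjusted p = 2.78e-06, 0.000123 and 3.71e-06), and the part of such differences between the lines in the results below was not tested. The summed markers of other cell types were low in all 6 libraries, at no more than 1.35 FPKM for fibroblasts, 0.127 for leukocytes and 0.0879 for endothelium. In bulk RNA, fewer cells with a transcript and less of it per cell cannot be told apart.

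A gene was tested where at least 3 of the 6 libraries reached 1 FPKM, and was called at a Benjamini-Hochberg adjusted p under 0.05 over all tested genes. Fold changes are OVER43 minus EV on the log2(FPKM + 1) scale, which understates changes of low genes. Of the 243 members, 174 passed the filter and 69 did not. The median member stood at 3.17 FPKM over the 6 libraries, and the median of the tested members was 5.50 FPKM against 13.0 for all tested genes. Of all members, 31 had a mean of 10 FPKM or more and 53 a mean under 0.1 FPKM. A value near 0 can be a failed estimate in these tables, since the ubiquitous chromatin gene ATRX is listed at a mean of 0.000174 FPKM in OVER43 and 0.000245 in EV. The untested members can therefore not be read as silent.

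Among the tested members, 32 rose and 12 fell in OVER43, so 44 of 174 (25.3%) were called. The background over all 12205 tested genes was 45.9% called, 28.4% higher and 17.5% lower. The members' median log2 fold change was 0.07, beside 0.05 for all tested genes. Groups did not overlap for 63 members (36.2%), beside 56.3% of all tested genes. The share of members called lay below the background in each of 3 bands of mean expression. Under 5 FPKM, 14 of 79 members (17.7%) were called, beside 31.5% of all genes. From 5 to under 20 FPKM the shares were 29.9% of 87 members and 40.0% of all genes, and from 20 FPKM on 4 of 8 members were called beside 62.0% of all genes. The 194 tested ZNF genes of other chromosomes had 52 calls higher and 25 lower (39.7%), with a median of 0.07. The other 748 tested genes of chromosome 19 had 224 higher and 106 lower (44.1%), with a median of 0.09. These shares are descriptions, and no test compared the lists.

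**Figure D1:**
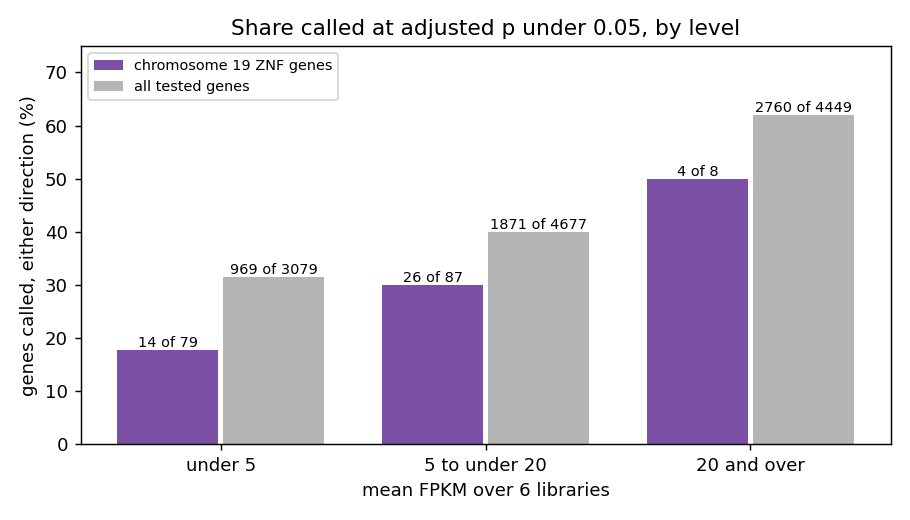
Bars give the percentage of genes called in either direction (vertical axis) in 3 bands of mean FPKM (horizontal axis), with the number called of the number tested above each bar, for chromosome 19 ZNF genes (purple) and all tested genes (grey). The purple bars stand at 17.7%, 29.9% and 4 of 8, each below the grey bar beside it at 31.5%, 40.0% or 62.0%.

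The excess of gains over losses depended on how the libraries were scaled to each other. As deposited, 32 members were higher and 12 lower, with TMM scaling 20 and 16, with quantile scaling 31 and 7, and with equal FPKM sums 10 and 21. Over all 12205 tested genes the counts were 3462 higher and 2138 lower as deposited, and 2838 and 2556 with TMM. They were 2557 and 2434 with quantile scaling, and 1870 and 3567 with equal sums. Of the called members 32.3% were higher with equal sums, beside 34.4% of all called genes. With quantile scaling these shares were 81.6% and 51.2%. Equal sums moved the median of all genes by -0.13 on the log2 scale, and the members' median stood 0.03 above that of all genes there, 0.02 above it with TMM, 0.10 with quantile scaling and 0.01 as deposited. Summed over the 243 members, FPKM came to 1297, 1318 and 1287 in the OVER43 libraries and to 1193, 1187 and 1177 in the EV libraries. As a share of all FPKM these sums were 0.227% to 0.238% in OVER43 and 0.234% to 0.235% in EV, so the groups did not overlap in the sum and did overlap in the share. Under all 4 scalings 10 members were called higher (ZNF57, ZNF114, ZNF254, ZNF296, ZNF440, ZNF480, ZNF581, ZNF628, ZNF784 and ZNF865) and 7 lower (ZNF44, ZNF77, ZNF222, ZNF224, ZNF473, ZNF780A and ZNF791).

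**Figure D2:**
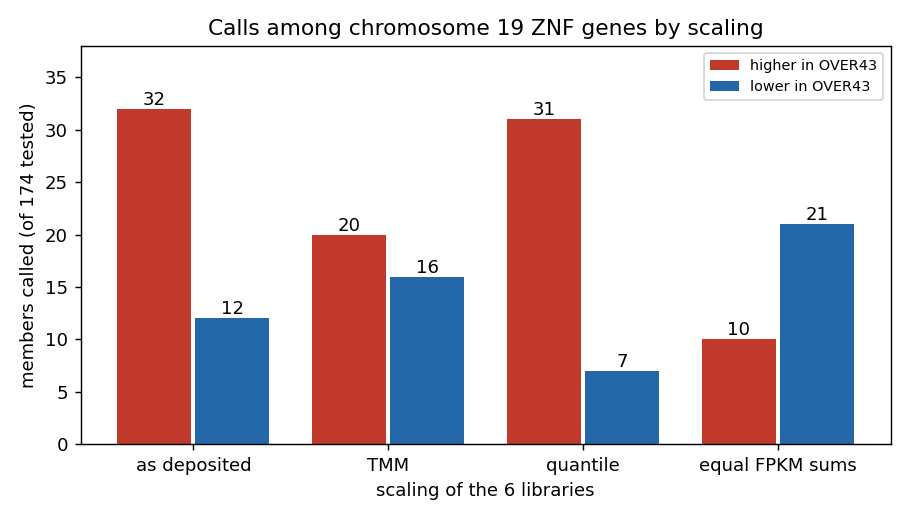
Bars count the members called higher (red) and lower (blue) in OVER43, of 174 tested (vertical axis), under 4 scalings of the 6 libraries (horizontal axis). Gains outnumber losses in 3 of the 4, and with equal FPKM sums 10 gains stand beside 21 losses (all tested genes 1870 and 3567).

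ZNF114, a KRAB zinc finger gene, had the largest change of all members. Its 3 OVER43 values were 21.8, 21.2 and 23.4 FPKM, and its 3 EV values were 3.13, 3.71 and 3.19 FPKM. The 3 OVER43 values lay far above the 3 EV values and the spread within each group was small (22.1 ± 1.17 and 3.34 ± 0.319, SD, n = 3 each), a 6.62-fold difference with a log2 fold change of 2.41 (SE 0.08, adjusted p = 5.12e-07). Its deposited locus, chr19:48673949-48790865 on hg19, is a bundle that also holds the antisense gene CARD8-AS1. CARD8-AS1 stood at 6.99, 6.40 and 7.10 FPKM in OVER43 and at 1.57, 1.80 and 1.85 FPKM in EV, and rose by 1.51 on the log2 scale (SE 0.09, adjusted p = 1.26e-05). The strand setting of the counting is not given in the sources used here, so reads of overlapping genes in this bundle may not be told apart. The transcript table splits the ZNF114 signal over 2 called transcripts. ENST00000595607 had 13.5, 9.89 and 8.20 FPKM in OVER43 against 0.990, 1.38 and 0.776 in EV, and ENST00000315849 had 4.67, 7.11 and 12.8 against 1.249, 1.39 and 2.05. In OVER43 the library with the most of the first transcript had the least of the second, while the gene total stayed within 21.2 to 23.4 FPKM. The entry that spans the whole ZNF114 gene with its introns stood at 0.242, 0.217 and 0.249 FPKM in OVER43 and at 0.055, 0.064 and 0.086 in EV, also without overlap but below the level that was tested.

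**Figure D3:**
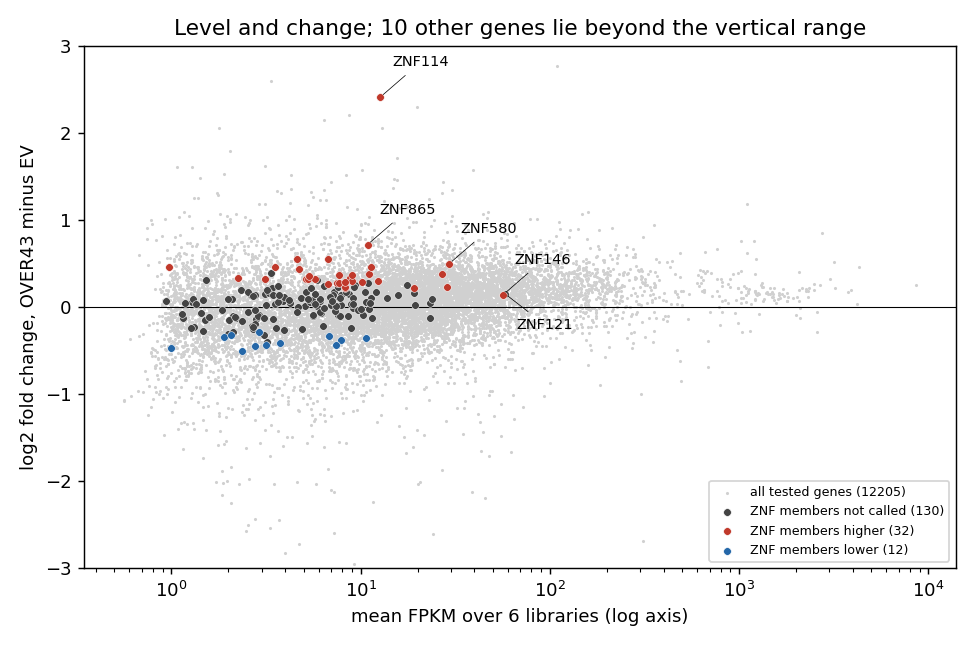
Each point is a tested gene, with mean FPKM over 6 libraries on a log axis (horizontal) and log2 fold change, OVER43 minus EV (vertical); members are coloured by call and all 12205 tested genes are grey. ZNF114 stands at 2.41, and every other member lies between -0.50 and 0.72.

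Beside ZNF114, gains among the members were smaller than 1 on the log2(FPKM + 1) scale. The next in size on that scale was ZNF865, with a ratio of means of 1.71, while by that ratio the next was the low ZNF547 at 1.93. The 21 predicted fingers of ZNF865 come with no KRAB match. ZNF865 stood at 14.2, 12.9 and 14.2 FPKM in OVER43 and at 6.77, 7.73 and 9.60 in EV (13.8 ± 0.742 and 8.03 ± 1.44, a log2 fold change of 0.72, SE 0.11, adjusted p = 0.00123). All 3 OVER43 libraries exceeded the highest EV library. ZNF480, a KRAB gene, stood at 6.62, 5.51 and 4.97 FPKM in OVER43 and at 3.71, 3.54 and 3.37 in EV (log2 fold change 0.55, SE 0.11, adjusted p = 0.00342). The groups were apart, although the OVER43 libraries spread more widely than the EV libraries. ZNF296, a factor studied in pluripotent stem cells, stood at 12.6, 12.8 and 14.3 FPKM against 8.79, 9.55 and 9.61 (0.46, SE 0.07, adjusted p = 0.00119), with no overlap. ZNF57 stood at 5.59, 5.76 and 5.40 FPKM against 3.34, 4.48 and 3.81 (0.44, SE 0.10, adjusted p = 0.00818). ZNF547 had the lowest level of the 10 largest gains, at 1.26, 1.27 and 1.33 FPKM against 0.672, 0.415 and 0.914. Its call (0.47, SE 0.14, adjusted p = 0.0285) was lost when any of 5 libraries was left out, with adjusted p from 0.0582 to 0.0813, and held only without EV library 2.

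**Figure D4:**
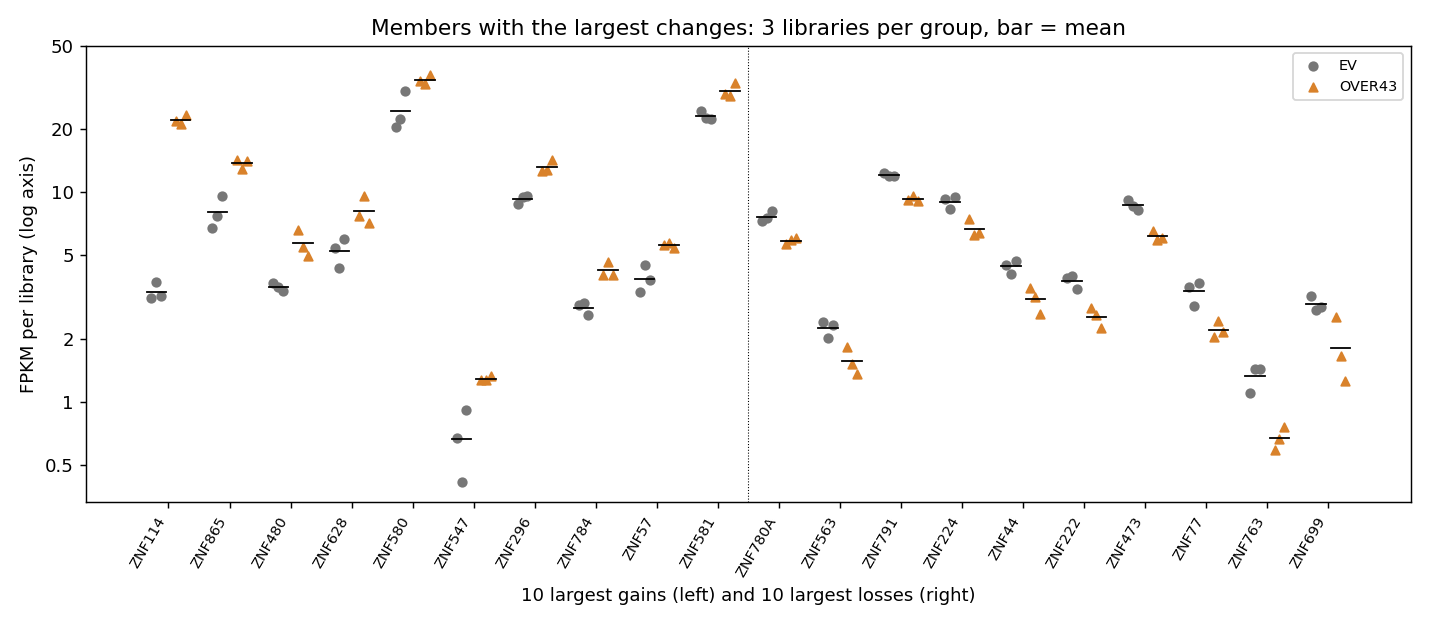
Points are FPKM per library on a log axis (vertical) for the 10 largest gains and the 10 largest losses among called members without overlap between groups (horizontal), with EV as grey circles, OVER43 as orange triangles and the group mean as a bar. ZNF114 has the widest gap, from a mean of 3.34 FPKM in EV to 22.1 in OVER43, while for ZNF580 and ZNF865 EV library 2 lies nearest to the OVER43 values.

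Losses among the members ended at -0.50 on the log2 scale. ZNF473 encodes a protein of the machinery that forms the 3' ends of histone mRNAs. It stood at 6.52, 5.92 and 6.05 FPKM in OVER43 and at 9.19, 8.62 and 8.25 in EV, and fell by 0.44 on the log2 scale (SE 0.07, adjusted p = 0.00192). ZNF791 stood at 9.23, 9.60 and 9.08 FPKM against 12.4, 12.01 and 12.02, a log2 fold change of -0.35 (SE 0.06, adjusted p = 0.00177). Both genes had tight groups with no overlap. ZNF224, a KRAB repressor that also binds the Wilms tumour protein WT1, stood at 7.495, 6.25 and 6.40 FPKM against 9.31, 8.30 and 9.46 (-0.38, SE 0.09, adjusted p = 0.00863). ZNF44 stood at 3.50, 3.17 and 2.62 FPKM against 4.51, 4.07 and 4.70 (-0.41, SE 0.11, adjusted p = 0.0149). ZNF699 had the largest loss on the log2(FPKM + 1) scale, while the largest by ratio of means was that of ZNF763 (0.507 against 0.621). ZNF699 went from 3.18, 2.75 and 2.83 FPKM in EV to 2.53, 1.65 and 1.26 in OVER43 (-0.50, SE 0.16, adjusted p = 0.0359). The OVER43 libraries of ZNF699 differ among themselves by as much as the groups do, and its call was lost without any 1 of 5 libraries, with adjusted p from 0.0653 to 0.102, and held only without OVER43 library 0. ZNF563 fell by 0.34 on the log2 scale (adjusted p = 0.0413), and that call too was lost without any 1 of 5 libraries, with adjusted p from 0.0511 to 0.116. With no filter on low values, the calls of ZNF44, ZNF77, ZNF224, ZNF563 and ZNF699 were lost, as were the gains of ZNF57, ZNF547, ZNF580 and ZNF628.

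The 5 members with the highest levels were ZNF121, ZNF146, ZNF580, ZNF562 and ZNF581. ZNF121 stood at 65.1, 63.8 and 54.4 FPKM in OVER43 and at 56.5, 54.2 and 53.3 in EV (61.1 ± 5.87 and 54.7 ± 1.62, adjusted p = 0.0992). Its groups overlapped, through OVER43 library 2, and without that library it passed the test. ZNF146, which consists almost only of zinc fingers and is overproduced in colorectal and pancreatic tumours, stood at 57.9, 62.4 and 58.5 FPKM against 53.7, 52.4 and 55.5. Its gain of 0.14 (SE 0.04, adjusted p = 0.0285) did not pass under any of the other 3 scalings, where it ranged from 0.00 to 0.09, nor without OVER43 library 1, EV library 0 or EV library 1. The levels of ZNF121 and ZNF146 overlapped, and every library of both lay above the highest library of ZNF580, at 36.5 FPKM. ZNF562 stood at 30.003, 32.7 and 29.9 FPKM against 28.0, 25.4 and 25.2 (0.23, SE 0.06, adjusted p = 0.0150), a call lost with quantile scaling, with equal sums, without OVER43 library 1 (adjusted p = 0.0519) and without EV library 1 (adjusted p = 0.0510).

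Of 11 members set by name for a known function or place, 7 were tested, and 4 of these were called (ZNF114, ZNF146, ZNF224 and ZNF649). Over all tested genes 45.9% were called, and over all tested members 25.3%. The names were set with earlier results of these data known. ZNF91, which silences SVA retrotransposons, stood at 9.17, 9.89 and 8.62 FPKM in OVER43 and at 7.59, 9.15 and 7.87 in EV, with overlapping groups (0.15, SE 0.09, adjusted p = 0.183). ZNF675, an inhibitor of TRAF6 signalling, stood at 12.9 ± 0.338 against 11.4 ± 1.30 FPKM (adjusted p = 0.133). ZNF331, an imprinted gene, stood at 0.746, 1.062 and 1.45 FPKM against 1.23, 1.09 and 1.23 (adjusted p = 0.685). ZNF649, a repressor of growth factor response elements, rose from 1.75, 2.25 and 1.64 FPKM to 2.71, 2.51 and 2.67 (0.34, SE 0.11, adjusted p = 0.0387). That call was lost with TMM and with equal sums, and without any 1 of 5 libraries (adjusted p from 0.0682 to 0.106), and held only without EV library 1. ZNF93, which silences LINE-1 elements, had means of 0.225 and 0.145 FPKM, and ZNF382, a gene often silenced by methylation in tumours, 0.166 and 0.223 FPKM. ZNF274, which binds the 3' ends of ZNF genes themselves, and ZNF304 had means of at most 0.0345 FPKM in either group. These 4 genes were under the filter and were not tested.

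Along the chromosome the members fell into 11 clusters, defined as runs of at least 3 members less than 500 kb apart, with 11 members outside them. A locus in the deposited tables can be a bundle of overlapping genes, and 174 members have a locus that lists another gene as well. The clusters differed in which direction their calls took. Cluster 4, at chr19:19779605-24312654 on hg19, holds 33 members from ZNF101 to ZNF254, of which 14 were tested, and 7 rose and 0 fell (median 0.22), beside 28.4% higher and 17.5% lower over all tested genes. The 7 were ZNF14, ZNF101, ZNF253, ZNF254, ZNF429, ZNF430 and ZNF681, with fold changes from 0.27 to 0.37. ZNF254 stood at a mean of 9.96 FPKM against 7.70 (0.33, SE 0.06, adjusted p = 0.00368), and ZNF429 at 8.80 against 6.60 (0.37, SE 0.09, adjusted p = 0.0101). Of the 16 tested non-members inside this cluster 1 rose and 2 fell, with a median of 0.10. With TMM scaling 4 members of the cluster were higher, with quantile scaling 6 and with equal sums 1, and none was lower under any of the 4 scalings.

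Cluster 10, at chr19:55987350-57183151, holds 17 members, of which 11 were tested, and 5 rose and 0 fell (median 0.26), so 45.5% were higher beside 28.4% of all tested genes. Its called members were ZNF628, ZNF865, ZNF784, ZNF580 and ZNF581, and none of the 5 has a KRAB match. ZNF628 stood at 7.72, 9.60 and 7.14 FPKM in OVER43 and at 5.44, 4.36 and 5.99 in EV (0.55, SE 0.13, adjusted p = 0.00970). ZNF784 stood at 4.05, 4.62 and 4.04 FPKM against 2.90, 2.96 and 2.60 (0.46, SE 0.09, adjusted p = 0.00476). For both genes all OVER43 libraries lay above all EV libraries. ZNF580 and ZNF581 share the bundle chr19:56146382-56164527. ZNF580 stood at 34.2, 32.8 and 36.5 FPKM against 20.5, 22.4 and 30.4 (0.50, SE 0.13, adjusted p = 0.0136), and ZNF581 at 29.4, 28.8 and 33.4 against 24.4, 22.7 and 22.4 (0.38, SE 0.07, adjusted p = 0.00219). The call of ZNF580 did not hold with equal sums (adjusted p = 0.0592), nor without OVER43 library 2 (adjusted p = 0.0505) or EV library 1 (adjusted p = 0.0536). With equal sums and with TMM this cluster had 1 call lower, beside 4 and 5 higher.

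Clusters 3 and 8 together hold 7 of the 12 losses, and 17.4% and 15.8% of their tested members fell, near the 17.5% of all tested genes. Cluster 3, at chr19:11562141-12750912, had 23 of 27 members tested, 2 higher (ZNF440 and ZNF700) and 4 lower (ZNF44, ZNF563, ZNF763 and ZNF791), with a median of -0.09. ZNF440, the highest of this cluster, stood at 12.6, 12.5 and 12.9 FPKM against 9.27, 8.62 and 10.7 (0.38, SE 0.08, adjusted p = 0.00564). Nearby ZNF763 went the other way, from 1.11, 1.44 and 1.43 FPKM to 0.591, 0.666 and 0.756 (-0.47, SE 0.13, adjusted p = 0.0155), and was not called without OVER43 library 0 (adjusted p = 0.0533), without EV library 1 (adjusted p = 0.0515) or with quantile scaling (adjusted p = 0.0611). The assignment of its reads is also uncertain, because 54.1% of its 50-base stretches occur in other annotated genes, and 51.5% in a single one. Cluster 8, at chr19:44010871-45004576, had 19 of 22 members tested, 1 higher (ZNF180) and 3 lower (ZNF155, ZNF222 and ZNF224), with a median of -0.12. The non-member KCNN4, a calcium-activated potassium channel inside cluster 8, fell much further, from 41.7, 43.8 and 43.7 FPKM to 10.5, 10.7 and 12.03 (-1.87, SE 0.06, adjusted p = 5.12e-07). Of the 11 tested non-members there 1 rose and 4 fell, with a median of -0.03. Clusters 9 and 11, with 30 and 28 tested members, had 6 and 2 calls higher and 0 lower as deposited. In both clusters the share of tested members that rose lay below the 28.4% of all tested genes, and the share that fell below the 17.5%. With equal sums cluster 9 had 1 higher and 2 lower, and cluster 11 had 0 calls in limma. The highest members of clusters 1, 5, 8 and 11 were ZNF556, ZNF302, ZNF428 and ZNF544. Their groups overlapped and none was called in limma (adjusted p = 0.309, 0.199, 0.849 and 0.442).

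**Figure D5:**
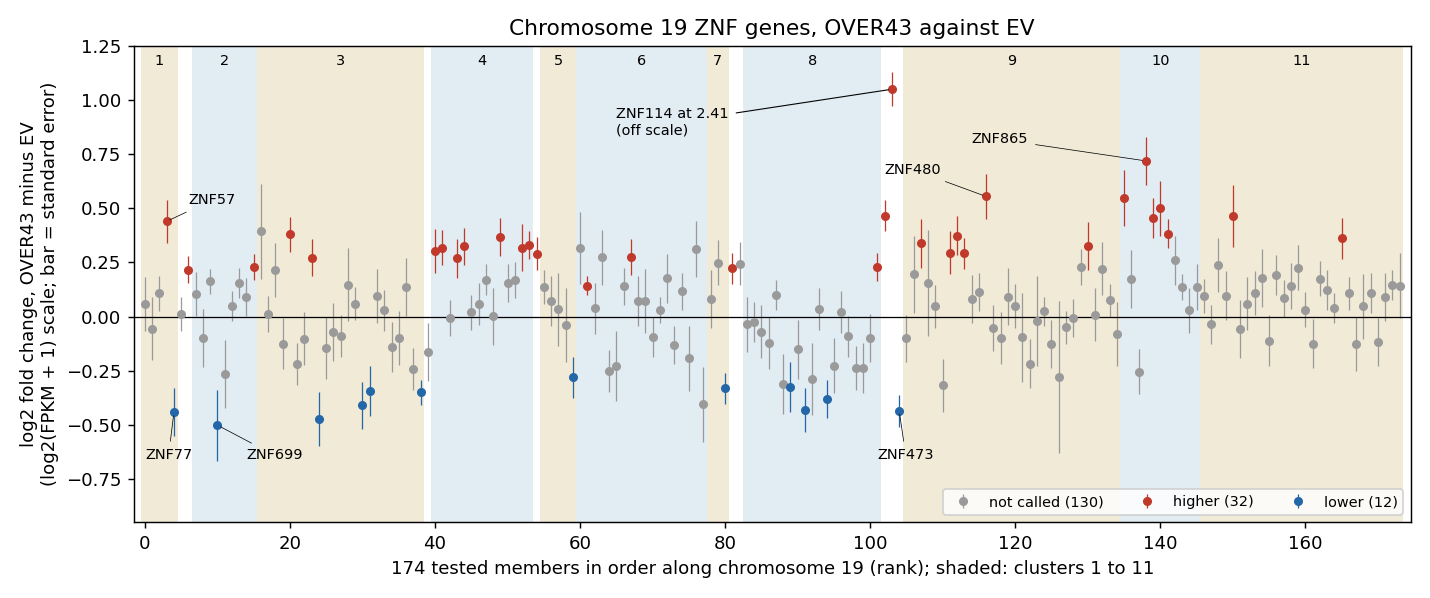
Points are the log2 fold changes (vertical axis, OVER43 minus EV, bars are standard errors) of the 174 tested members in order along the chromosome (horizontal axis, rank), coloured by call, with the 11 clusters shaded. Clusters 4 and 10 hold 7 and 5 of the red points, clusters 3 and 8 hold 4 and 3 of the blue points (17.4% and 15.8% of their tested members, beside 17.5% of all genes), and ZNF114 at 2.41 is drawn at the top with its value.

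Close neighbours could be called in opposite directions. In cluster 1, ZNF57 rose by 0.44 and ZNF77 fell from 3.54, 2.87 and 3.67 FPKM to 2.04, 2.42 and 2.15 (-0.44, SE 0.11, adjusted p = 0.0121). ZNF780A and ZNF780B share a bundle in cluster 7. ZNF780A stood at 5.66, 5.91 and 6.06 FPKM in OVER43 and at 7.33, 7.51 and 8.15 in EV (-0.33, SE 0.07, adjusted p = 0.00659). ZNF780B stood at 11.1, 9.44 and 10.2 FPKM against 9.87, 8.15 and 7.47, with overlapping groups (0.25, SE 0.10, adjusted p = 0.0835). The difference between these 2 genes' changes was not tested, and 9.88% of the 50-base stretches of ZNF780A occur in other genes.

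The promoters of ZNF222 and ZNF230 in cluster 8 are printed because they hold a stretch that is nearly the same, while only ZNF222 was called. RefSeq promoters (GRCh38.p14, 250 bases before to 50 after the start) were found for 209 of the 242 symbols. The windows below run 5' to 3' on the gene's strand, with CACTTCCGG in capitals, which is CCGGAAGTG read on the other strand and a core bound by ETS family factors. ZNF222 (plus strand, chr19:44025284-44025362), ZNF230 (plus strand, chr19:44002912-44002956) and ZNF226 (plus strand, chr19:44164977-44165055) read as follows.
ZNF222: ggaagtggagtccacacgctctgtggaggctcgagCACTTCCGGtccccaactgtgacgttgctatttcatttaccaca
ZNF230: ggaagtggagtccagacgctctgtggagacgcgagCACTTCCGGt
ZNF226: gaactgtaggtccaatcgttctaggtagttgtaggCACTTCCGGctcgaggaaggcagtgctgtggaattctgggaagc
Over the first 44 bases of the windows, ZNF222 and ZNF230 were identical at 41 positions, and ZNF222 and ZNF226 at 25. These counts include the motif on which the windows were set. In the 35 bases before it, the identical positions were 32 for ZNF222 and ZNF230, and 16 for ZNF222 and ZNF226. Between the motif and the annotated start lie 51 bases in ZNF222, 1 in ZNF230 and 79 in ZNF226. The compared stretches thus stand at different distances from the start, and the ZNF230 window is short because it ends there. As for transcripts, 19.3% of the 50-base stretches of ZNF222 occur in another annotated gene. ZNF222 stood at 2.80, 2.60 and 2.26 FPKM in OVER43 and at 3.89, 3.99 and 3.47 in EV (-0.43, SE 0.10, adjusted p = 0.00875). ZNF230 stood at 1.74, 2.33 and 1.55 FPKM against 2.33, 1.85 and 2.36, and ZNF226 at 10.8, 10.1 and 8.86 against 10.9, 9.48 and 11.6, both with overlapping groups and not called. Whether ZNF222 and ZNF230 differ in their change was not tested.

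CCGGAAGTG, searched on both strands, occurred in 17 of 256 member promoters (6.64%), beside 2.36% of 35114 promoters of all genes. Of its tested bearers, 2 rose (ZNF180 and ZNF865) and 2 fell (ZNF222 and ZNF780A). The others, ZNF160, ZNF175, ZNF226, ZNF230, ZNF578, ZNF585A, ZNF585B, ZNF653, ZNF766 and ZNF787, were not called. Among all tested members 25.3% were called, and among all tested genes 45.9%. ZNF180, the 1 member of cluster 8 that rose, stood at 9.39, 9.10 and 8.64 FPKM against 7.55, 7.66 and 7.48 (0.23, SE 0.06, adjusted p = 0.0201). Its promoter also holds a core bound by the factor ZNF143, in capitals below as read on the minus strand at chr19:44500527-44500607. ZNF850, which rose from a mean of 6.91 to 8.56 FPKM (0.27, SE 0.08, adjusted p = 0.0247), holds a palindrome bound by BANP, in capitals, at chr19:36772812-36772891 on the minus strand. Both windows are shown because these are the called members with these motifs.
ZNF180: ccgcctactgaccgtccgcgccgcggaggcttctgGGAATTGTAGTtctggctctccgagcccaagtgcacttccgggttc
ZNF850: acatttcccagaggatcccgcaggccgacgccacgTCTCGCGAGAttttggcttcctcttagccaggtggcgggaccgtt
Searched on both strands, the ZNF143 core occurred in 3 member promoters (1.17%, all genes 0.231%) and the BANP palindrome in 2 (0.781%, all genes 0.424%). A core bound by NRF1 occurred in 8 (3.12%, all genes 1.24%), among them that of ZNF699, which fell, and a core bound by YY1 in 2 (0.781%, all genes 0.849%). The ratio of observed to expected CpG had a median of 0.765 in promoters of tested members and 0.756 in those of untested members, beside 0.579 over all promoters. These matches describe the sequences and are not evidence of binding.

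Coding sequences translated from GENCODE 29 encoded a median of 13 fingers per member, from 1 to 39, the most in ZNF729. A pattern for the KRAB box was found in 202 members and not in 37. Of the 28 tested members without the match, 10 rose and 1 fell (median 0.16), and of the 144 with it 22 rose and 11 fell (median 0.04). Beside the 28.4% higher and 17.5% lower of all tested genes, these are 35.7% and 3.57% without the match and 15.3% and 7.64% with it. With TMM the counts with the match were 13 higher and 14 lower, and with equal sums 5 and 19 (median -0.08). Those without it were 7 and 2 with TMM, and 5 and 2 with equal sums (median 0.04). All tested genes had 2838 higher and 2556 lower with TMM, and 1870 and 3567 with equal sums (median -0.08). The transcripts of the tested members without the match had a median GC content of 60.2%, against 42.3% with it. Across the 174 tested members the Spearman correlation of fold change with GC content was 0.14, with mean FPKM 0.37, and, across the 172 of them with a coding sequence, with finger number -0.11. Over all tested genes the correlation with mean FPKM was 0.28 and, over the 11874 with an annotated transcript, with GC content 0.016. These correlations are across genes of the same 6 libraries and are not replicates. The pattern was widened 3 times after members it had missed were inspected, and the KRAB genes ZNF473, which is the 1 loss counted without the match, and ZNF714 are still missed. With the first and narrowest pattern, 14 members without it rose and 7 fell (median 0.05), beside 18 and 5 with it (median 0.08), so the order of the medians depended on the pattern.

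Sequence shared with other annotated entries limits what gene counts can show. Part of this sharing is between overlapping entries, such as ZNF20 and ZNF625 with the readthrough ZNF625-ZNF20, or the 2 entries of ZNF709. For 27 members at least 20% of their 50-base stretches also occurred in another gene. Of the 22 of these that were tested 3 were called (ZNF417, ZNF700 and ZNF763), beside 25.3% of all tested members and 45.9% of all tested genes. ZNF320, the highest of cluster 9, shared 99.5% of its stretches with other genes, mainly ZNF468. It stood at 11.6, 10.9 and 10.3 FPKM against 13.5, 9.88 and 12.9, with overlapping groups (adjusted p = 0.378).

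At the transcript level, 302 spliced transcripts of the members were tested and 13 rose and 2 fell (4.97%, beside 14.8% of all spliced transcripts). Of the 44 called genes 13 had a called transcript. The losses were ENST00000498389 of ZNF791, at 0, 0.450 and 0.688 FPKM in OVER43 against 2.90, 1.41 and 2.46 in EV (adjusted p = 0.0398), and ENST00000601688 of ZNF780A, listed at 0 in all OVER43 libraries against 1.18, 1.22 and 1.0535 (adjusted p = 0.0189). In both genes other transcripts did not pass the test, such as ENST00000343325 of ZNF791 at means of 6.03 and 6.78 FPKM (adjusted p = 0.292). ZNF714, the highest member of cluster 4, was the only gene with a called transcript and no gene call. Its gene values were 21.0, 19.01 and 18.5 FPKM against 19.98, 17.1 and 20.6 (adjusted p = 0.854), while ENST00000600435 stood at 2.998, 2.73 and 2.87 against 1.11, 1.07 and 0.902 (0.93, SE 0.12, adjusted p = 0.00679). Of 8 tested entries that span a member's whole gene, limma called 0 (0 at an unadjusted p under 0.05), where 10.0% of such entries were called over all genes. ZNF865 was one of them, with 2.37 against 1.95 FPKM (0.19, adjusted p = 0.328), while its spliced transcript rose from 6.08 to 11.4 FPKM (0.83, SE 0.16, adjusted p = 0.0252).

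Genes of the silencing machinery that KRAB proteins use moved in both directions. Of 28 such genes 24 were tested, and 8 rose and 6 fell, with a median of -0.00. The share called was 58.3%, beside 45.9% of all tested genes. The counts were 8 higher and 9 lower with TMM, 3 and 8 with quantile scaling (median -0.11) and 4 and 11 with equal sums (median -0.14). All tested genes had 2838 higher and 2556 lower with TMM, and 2557 and 2434 with quantile scaling (median 0.02). With equal sums they had 1870 and 3567 (median -0.08). TRIM28 stood at 202, 190 and 208 FPKM in OVER43 and at 170, 156 and 132 in EV (0.39, SE 0.08, adjusted p = 0.00672), a call lost with quantile scaling (adjusted p = 0.0757) and with no filter (adjusted p = 0.0841). The HP1 gene CBX3 rose from 124.9 to 164.8 FPKM (0.40, SE 0.03, adjusted p = 3.37e-05), and CBX5, which the table lists together with MIR3198-2, stood at 18.1 in OVER43 and 18.8 FPKM in EV (adjusted p = 0.494), called lower with equal sums (adjusted p = 0.0366). DNMT1, the maintenance DNA methyltransferase, rose from 77.3 to 88.4 FPKM (0.19, SE 0.04, adjusted p = 0.00547), and this call was lost with quantile scaling and equal sums. The de novo methyltransferases DNMT3A and DNMT3B fell, DNMT3A from 5.51, 5.96 and 5.78 FPKM to 2.68, 2.94 and 3.02 (-0.80, SE 0.08, adjusted p = 0.00017) and DNMT3B from 4.62 to 3.31 FPKM (-0.38, SE 0.09, adjusted p = 0.00922). SETDB1 stood at 8.85, 9.22 and 8.95 FPKM against 13.9, 9.73 and 10.7 (-0.30, SE 0.11, adjusted p = 0.0648), and without EV library 1, with TMM or with equal sums it passed the test as lower. Among 9 tested C2H2 genes of chromosome 19 with other symbols, 3 rose (ZBTB7A, ZBTB45 and WIZ), which is 33.3% beside 28.4% of all tested genes, and 0 fell in limma.

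The authors' deposited table called 17 members, 13 higher and 4 lower in OVER43, which is 9.04% of the 188 members it tested beside 21.3% of all genes it tested. Of the 17, 16 were also called in limma. ZNF221 was the exception, with a log2 fold change of EV over OVER43 of 0.49 and a q-value of 0.00562 in the authors' deposited table.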

How the data were processed

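Poly(A) RNA of 6 RKO samples was made into TruSeq libraries (source: the labels' protocols). Cuffdiff, named without a version in the submitters' processing notes, gave the FPKM values that the authors deposited for each library, in a table of 63563 genes and one of 251748 transcript entries. In the deposited tables the log2 fold change has EV as its numerator. A score deposited by the authors, their test statistic, was not used, and the deposited q-values and p-values only for the authors' calls. The notes name hg38, but the deposited loci are hg19 positions: 14 of the 243 members overlap their GRCh38 positions. The sources used here name neither aligner nor strand. Columns are numbered 0 to 2 and labels 1 to 3, so a column is a library of its group, not a given sample. No per-library column was left out.

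The test was that of limma (version 3.58.1, under R 4.3.3, with trend and robust set), two-sided, on log2(FPKM + 1) with group as its 1 term, for genes that reached 1 FPKM in 3 of 6 libraries. Cuffdiff gave no estimate for 9 genes and failed for 10, which were left out. Tested on simulated data with known changes in this comparison (12205 genes), 59% of changes of 0.5 and 89% of changes of 1 were recovered, with 5 false calls. Far fewer genes were changed in the simulation than were called in the real data, so these rates may not hold for the real comparison. The numbers did not pair the libraries (see the processing part of the closing section). Alternatives were 3 scalings (TMM was an own implementation), 2 filters, each library left out, a block on the column number, and 0.1 as pseudocount.

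Members and lists were chosen with earlier results of these data known. Named members are the 10 largest changes in each direction among called members without overlap and with a mean of 1 FPKM in a group, the 5 highest, the highest of each cluster, and 11 set by name; other genes and the clusters described were chosen after their values were seen. No protein table was at hand, so fingers and the KRAB pattern come from translated GENCODE 29 coding sequences, an addition made after the data were seen, as was each widening of the pattern. Shared 50-base stretches use the same annotation. UHRF1 is not analysed here.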

Additional observations from a re-analysis of the deposited data

How the results depend on the processing

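As deposited, 32 members were higher and 12 lower, with a median of 0.07. The count of gains was 20 with TMM, 10 with equal FPKM sums and 11 with no filter on low values, and that of losses 7 with quantile scaling, 21 with equal sums, 6 with no filter and 4 with a filter of 5 FPKM. The median was 0.12 with quantile scaling and -0.048 with equal sums. Leaving out each library gave 21 to 26 gains (21 without OVER43 library 1), 8 to 12 losses and medians from 0.04 to 0.08. The cause of these shifts was not tested; leave-outs have fewer libraries, and dropping or raising the filter changes which genes are tested. With equal sums the sign of the median and the balance of gains and losses thus turned round. Over all tested genes both turned as well, to 1870 higher and 3567 lower and a median of -0.08. No named gene that was called changed its direction in any alternative. Of 24 named members called as deposited, 11 were called in the same direction under every alternative in which they were tested: ZNF114, ZNF222, ZNF296, ZNF440, ZNF473, ZNF480, ZNF581, ZNF780A, ZNF784, ZNF791 and ZNF865. With a replicate block by column number 28 members were higher and 9 lower; deviations of same-numbered libraries correlated at 0.02, -0.09 and 0.03, and only OVER43 library 2 correlated best with its own number, so the numbers are not a pairing. The depth of 41.6 to 50.8 M fragments leaves members under 1 FPKM at fewer than about 204 fragments, and 69 members untested.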

Other observations

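Antisense and readthrough loci named after members were mostly too low to test. ZNF114-AS1, beside the member with the largest gain, stood at 0.744, 0.353 and 1.11 FPKM in OVER43 and at 0.546, 0.663 and 0.207 in EV, with overlapping groups. ZNF561-AS1, the highest of these antisense loci, stood at 3.25, 2.97 and 3.77 FPKM against 4.08, 5.14 and 3.07 (adjusted p = 0.277). ZNF571-AS1 had 1.10, 1.29 and 0.0434 FPKM in EV and 0.0495, 0.389 and 0.0652 in OVER43, with overlapping groups, and was not tested. The readthrough ZNF625-ZNF20 stood at 1.99, 2.14 and 2.11 FPKM against 1.66, 1.73 and 1.60, without overlap and not called (adjusted p = 0.117). It holds 71.9% of the 50-base stretches of ZNF20 and 100% of those of ZNF625, so reads of these genes may not be told apart.

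Both entries of ZNF709 lie in the bundle that also holds ZNF791. The higher entry had a mean of 2.01 ± 0.392 FPKM (OVER43) and 2.21 ± 0.213 FPKM (EV) (adjusted p = 0.552), and the other at 0.236 ± 0.153 and 0.172 ± 0.0104 and was not tested.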
